A study of Drosophila melanogaster with 4 samples.

Results

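The Hox genes of Drosophila melanogaster lie in 2 groups on chromosome arm 3R, and the regions bound by NURF301 inside these groups are described here. The Antennapedia complex was taken as 2480000 to 2830000 (350 kb) and carries lab, pb, Dfd, Scr, ftz and Antp. The bithorax complex was taken as 12480000 to 12815000 (335 kb) and carries Ubx, abd-A and Abd-B. All coordinates are on FlyBase r5, counted from 1. Every deposited region that overlapped one of these intervals was a member, without regard to its score. This gave 28 of the 1308 regions of 3R in the list of replicate 1, 38 of 1492 in replicate 2 and 44 of 1918 in the combined list. Over all chromosomes the lists held 5576, 6320 and 8224 regions. The intervals together make up 2.45% of 3R.

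The samples were 2 chromatin immunoprecipitation (ChIP-seq) libraries made with the NURF301 antibody Q2602 and 2 input libraries of the chromatin before precipitation, where input replicate 1 belongs to ChIP replicate 1 and input replicate 2 to ChIP replicate 2. All 4 came from wild-type Oregon-R embryos aged 14 to 16 h, fixed with 1.8% formaldehyde. They are whole embryos, so segments in which a given Hox gene is active and segments in which it is silent were mixed in each library. No label gives the replicates separate embryo collections, and their spread may therefore be technical only.

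Hox genes encode homeodomain transcription factors that give segments along the body axis their identity, and their order on the chromosome follows the order of the segments they specify. In the Antennapedia complex, lab, pb and Dfd act in the head, Scr in the labial segment and anterior thorax, and Antp in the thorax, while ftz is a pair-rule segmentation gene that sits among them. In the bithorax complex, Ubx specifies the posterior thorax, including the haltere, abd-A the anterior and middle abdomen, and Abd-B the posterior abdomen. The active and silent states of these genes are kept through development by trithorax group and Polycomb group proteins. NURF301 is the large subunit of the nucleosome remodelling factor NURF, and its gene is also known as Enhancer of bithorax, after its genetic interaction with the bithorax complex. The bithorax complex is further divided into segment-specific regulatory domains separated by boundary elements.

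The complexes differ in gene content. In the RefSeq gene table of Release 6, used for names and order only, 20 protein-coding genes lay from lab to Antp. Besides the 6 Hox members these included zen, zen2 and bcd, homeobox genes of early patterning, Ama, and a run of cuticle protein genes between lab and pb (Edg84A and the Ccp84A genes). From Ubx to Abd-B there were 6 protein-coding genes, namely Ubx, CG31275, Glut3, abd-A, MSAmiP and Abd-B. Non-coding genes numbered 25 in the Antennapedia complex, among them the microRNA gene mir-10, and 11 in the bithorax complex, among them the lncRNA genes bxd and iab8 and the microRNA genes mir-iab-4 and mir-iab-8. No annotation of FlyBase r5 was used, so a region is given by its position and is not assigned to a gene, promoter or boundary element.

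Each region carries a deposited score, read as the log2 ratio of ChIP to input counts times a constant of its list. A score of 1 is thus a ratio of 2. Most results below use shared regions, meaning those of the combined list that met at least 1 bp of a replicate 1 region and at least 1 bp of a replicate 2 region. The Antennapedia complex held 15 shared regions among its 26 combined-list regions (57.7%, Wilson 95% interval 38.9% to 74.5%). The bithorax complex held 12 among 18 (66.7%, 43.7% to 83.7%). In the rest of 3R the share was 62%, 1161 of 1874, a value inside the intervals of both complexes. Wilson intervals here cover counting error only.

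**Figure D1:**
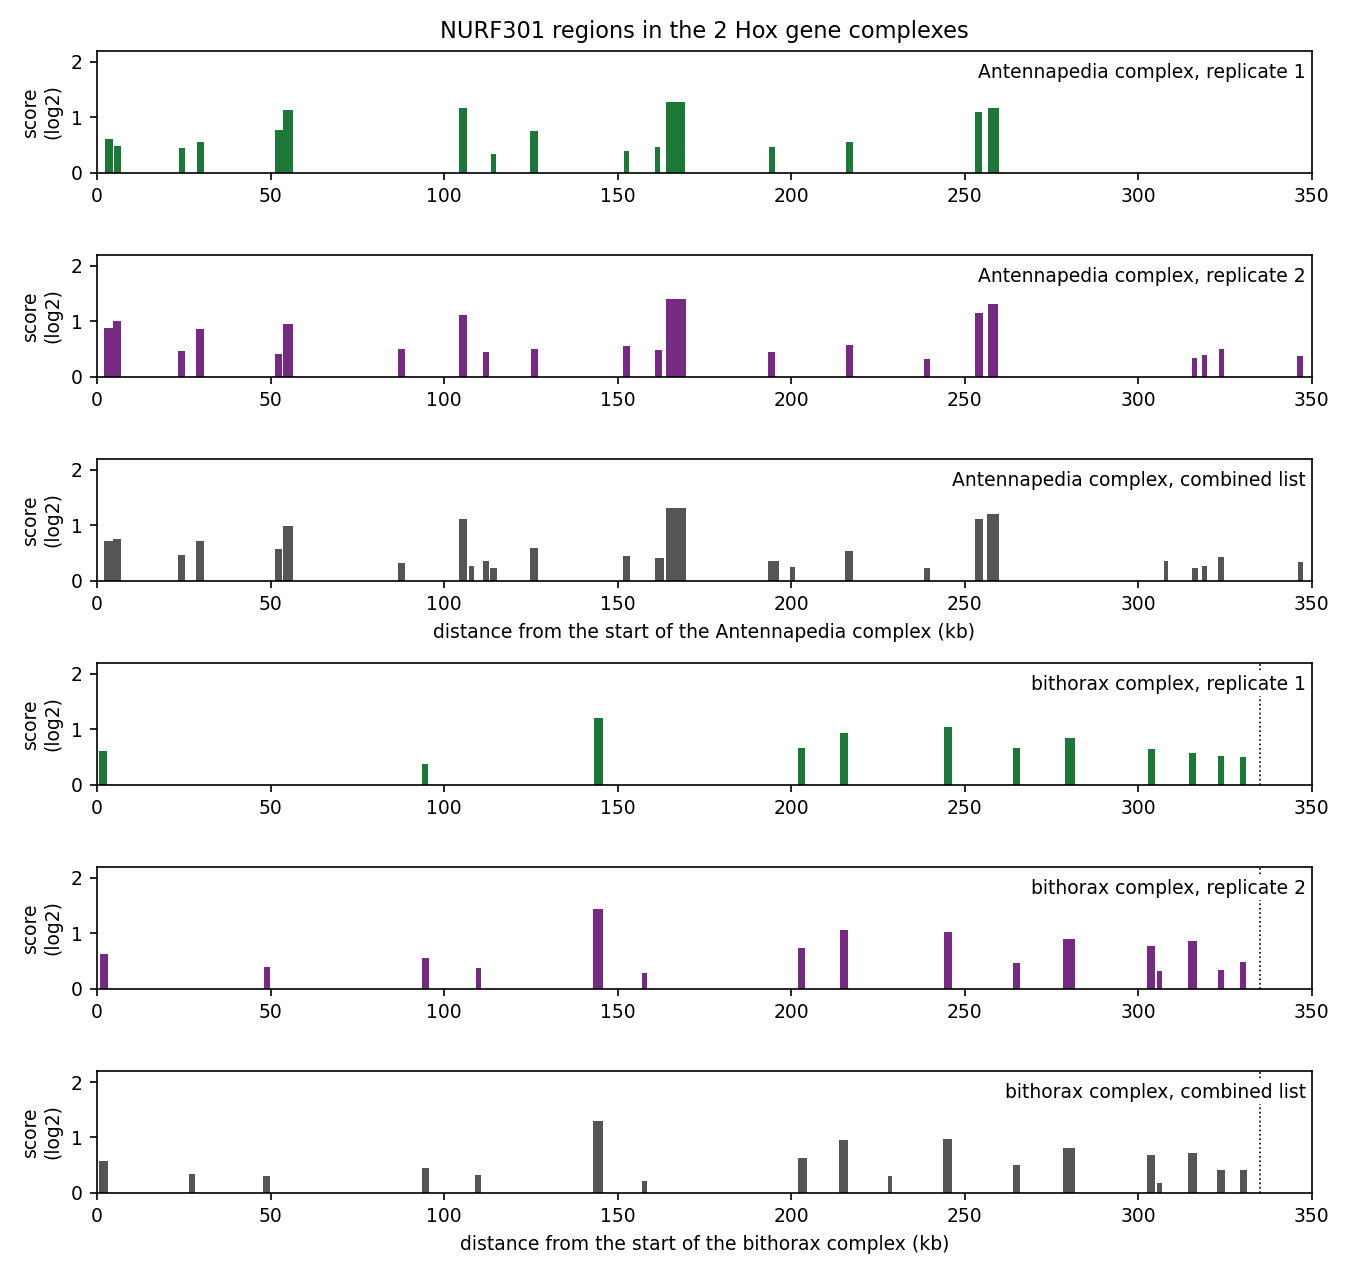
NURF301 regions in the Antennapedia complex (upper 3 panels) and the bithorax complex (lower 3 panels) in each list, with distance from the start of the complex in kb on the horizontal axis and the score (log2) as bar height. Bar width is region width, and the dotted line marks the end of the bithorax complex at 335 kb. The tallest bars recur at the same places in both replicates, at 164 kb in the Antennapedia complex and at 143 kb in the bithorax complex.

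In the Antennapedia complex, the strongest and widest site was a single broad region. It spanned 2643884 to 2649748, 5865 bp, and scored 1.28 in replicate 1 and 1.40 in replicate 2. Its combined-list score was 1.31, which is 2.48 times the input after scaling. Its replicate mean was 1.34 ± 0.089 (SD, n = 2). Among the 1188 shared regions of 3R it ranked 33 by score and 25 by width. It was thus high on both measures, and no other member of either complex was within 2 kb of its width.

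The next sites of that complex formed a close pair. The region at 2736498 to 2739848 scored 1.17 in replicate 1 and 1.30 in replicate 2 (mean 1.24 ± 0.095, SD, n = 2). Its neighbour at 2732910 to 2735160, 1337 bp away, scored 1.09 and 1.15 (mean 1.12 ± 0.043). They ranked 70 and 117 by score among the shared regions of 3R. Both were followed by an empty stretch, and they were the last shared regions before the distal end of the interval.

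Another strong site had no shared region within 10 kb. The region at 2584244 to 2586574 scored 1.18 in replicate 1 and 1.12 in replicate 2 (mean 1.15 ± 0.041, SD, n = 2) and ranked 113. The region at 2533590 to 2536532, 2943 bp wide, scored 1.14 and 0.95 (mean 1.04 ± 0.13) and ranked 200. It sat 227 bp from a weaker region at 2531114 to 2533362. Apart from that neighbour, the 5 sites named so far scored above 0.89 in both replicates.

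The sixth by score was less even. At 2484698 to 2486930, near the start of the interval, the score was 0.49 in replicate 1 and 1.00 in replicate 2 (mean 0.74 ± 0.36, SD, n = 2). This was the largest spread between replicates of any shared member of the 2 complexes. The region at 2673424 to 2676608, 3185 bp wide with a score of 0.36 in the combined list, scored 0.45 in each replicate. It was wide in the combined list only, since its replicate widths were 1829 bp (replicate 1) and 1950 bp (replicate 2). The other 8 shared regions of the complex scored 0.41 to 0.72 in the combined list, with widths of 2015 to 2691 bp.

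The bithorax complex had 1 site of comparable strength. The region at 12622922 to 12625766, 2845 bp wide, scored 1.20 in replicate 1 and 1.45 in replicate 2. Its combined-list score was 1.30, or 2.46 times the input. Its replicate mean was 1.32 ± 0.17 (SD, n = 2), and it ranked 36 among the shared regions of 3R. It stood isolated, with no shared region for 47.4 kb before it and for 56.1 kb after it.

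Beyond that second gap the complex held a chain of moderate sites. The region at 12723860 to 12726452 scored 1.04 in replicate 1 and 1.02 in replicate 2 (mean 1.03 ± 0.016, SD, n = 2), and the region at 12693912 to 12696352 scored 0.94 and 1.06 (mean 1.00 ± 0.084). The region at 12758298 to 12761680, the widest of the complex at 3383 bp, scored 0.85 and 0.89 (mean 0.87 ± 0.031). They ranked 227, 241 and 411 by score on 3R. In all 3 the replicates differed by less than the counting error of the difference.

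The chain continued to the end of the interval. The region at 12794416 to 12796844 scored 0.58 in replicate 1 and 0.86 in replicate 2 (mean 0.72 ± 0.20, SD, n = 2). The region at 12782576 to 12784800 scored 0.65 and 0.77 (mean 0.71 ± 0.083). The first region of the chain, at 12681916 to 12684510 and among the widest at 2595 bp, scored 0.67 and 0.73 (mean 0.70 ± 0.046). The other 5 shared regions scored 0.41 to 0.58 in the combined list. Each of the shared regions of both complexes, 27 in all, corresponded to a single region in each replicate list.

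The share of strong members depended on the complex, the limit and the list. A score at or above 0.89, the 75th percentile of shared regions in the rest of 3R (background 25.1%), was reached by 5 of 15 shared regions in the Antennapedia complex (33.3%, Wilson interval 15.2% to 58.3%) and by 3 of 12 in the bithorax complex (25%, 8.89% to 53.2%). At the 90th percentile, a score of 1.11 and a background of 10.1%, the counts were 4 of 15 (26.7%, 10.9% to 52.0%) and 1 of 12 (8.33%, 1.49% to 35.4%). Of the 4 in the Antennapedia complex, 2 lay just above that limit. By the 90th percentile of each replicate's own list, the Antennapedia complex had 5 of 16 in replicate 1 (31.2%, 14.2% to 55.6%, background 10%) but 2 of 22 in replicate 2 (9.09%, 2.53% to 27.8%, background 10%). At the 90th percentile, the interval of the Antennapedia complex lay above the background for shared regions, narrowly with 10.9% against 10.1%, and in replicate 1. It included the background in replicate 2 and in the combined list, at 4 of 26 (15.4%, 6.15% to 33.5%, background 10%). The regions come from the same libraries, and 2 of the 4 shared ones lie 1337 bp apart. They are not independent, the lists overlap, and the intervals are a description without a test. At the 75th percentile of shared regions, the intervals of both complexes included the background.

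The complexes were then set against windows of equal length tiled over the rest of 3R. There were 75 windows for the Antennapedia complex and 79 for the bithorax complex. The windows are stretches of 1 arm, not replicates, so a place among them is a description without a test. The Antennapedia complex had 4.29 shared regions per 100 kb against a window median of 4.00, with 43 windows lower, 6 equal and 26 higher. The bithorax complex had 3.58 against 4.18, with 25 windows lower, 2 equal and 52 higher. Both densities lay well inside the range between the 10th and the 90th percentile of the windows, 2.57 to 6.29 and 2.39 to 6.27. The direction turned with the bounds in each, since with 25 kb added on each side the difference from the window median was -0.50 in the Antennapedia complex and 0.78 in the bithorax complex.

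The share of sequence covered by regions placed the complexes among the windows much as density did. Shared regions covered 11.5% of the Antennapedia complex against a window median of 11.1%, and 41 of 75 windows were lower. They covered 8.72% of the bithorax complex against 12.4%, and 23 of 79 windows were lower. In the replicate lists the bithorax complex was covered to 7.79% in replicate 1 and 10.1% in replicate 2, differences of -3.19 and -3.10 percentage points from the window medians.

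The mean difference from the window median was -3.15 ± 0.062 percentage points for the bithorax complex (SD, n = 2), larger than the spread between replicates. For the Antennapedia complex it was 1.07 ± 0.99, and its sign turned with the bounds, since the value for shared regions was -1.43 with 25 kb added on each side. The lower coverage of the bithorax complex still lay within the 10th to 90th percentile range of the windows, 6.71% to 19.0%. It also depended on the bounds. With 25 kb added on each side, the difference for shared regions was -0.42 percentage points. With 25 kb removed on each side it was -5.21.

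**Figure D2:**
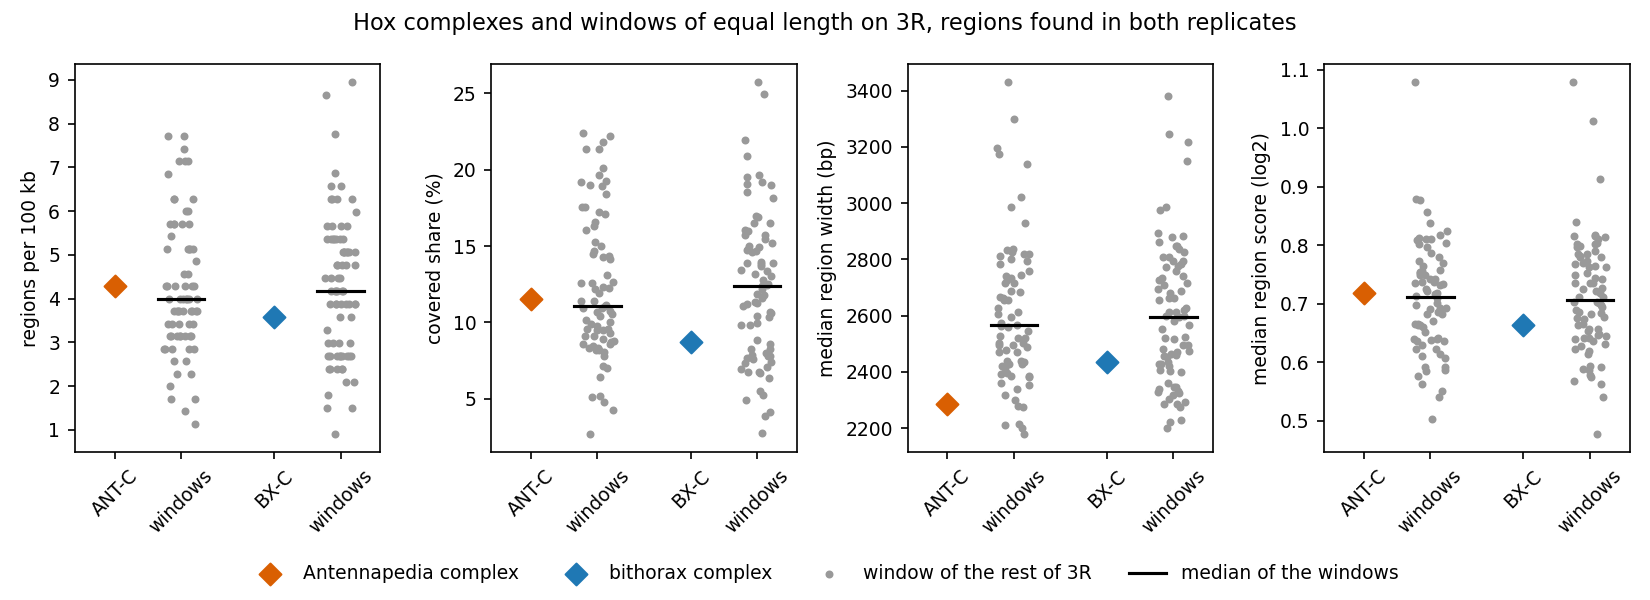
Values of the Antennapedia complex (ANT-C) and the bithorax complex (BX-C), as diamonds, left of the windows of equal length over the rest of 3R, as grey points, for shared regions per 100 kb, covered share (%), median region width (bp) and median region score (log2). Black lines are window medians, sideways spread of points has no meaning, and vertical axes do not start at 0. Both diamonds fall inside the cloud of windows in all 4 panels, lowest relative to it for the width in the Antennapedia complex (2285 bp).

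The lower coverage of the bithorax complex was also seen beside its own flanks. Shared regions covered 17.8% of the stretch of equal length before it and 12.4% of that after it. In replicate 1 the complex had 7.79% against 15.4% before and 10.6% after, and in replicate 2 it had 10.1% against 17.7% and 12.4%. It was therefore the least covered of the 3 stretches in each list. The Antennapedia complex, with 11.5%, lay between its flanks, at 8.66% before and 14.7% after.

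Within the bounds used, the Antennapedia complex was more densely covered than the bithorax complex. It had 10.5% against 7.79% in the bithorax complex in replicate 1, 14.0% against 10.1% in replicate 2, and 16.6% against 11.5% in the combined list. Regions per 100 kb ran the same way, with 4.57 against 3.58, 6.29 against 4.78, and 7.43 against 5.37. The difference in covered share within a replicate averaged 3.28 ± 0.81 percentage points (SD, n = 2), and that in regions per 100 kb averaged 1.25 ± 0.37, both larger than the spread between replicates. Neither held in the replicate lists with 25 kb added to each side of both complexes, a setting added after the data were seen. The covered share was then 9.80% in the Antennapedia complex against 10.2% in the bithorax complex in replicate 1, and 12.8% against 13.3% in replicate 2. Regions per 100 kb were then 4.25 against 4.68 and 5.75 against 5.97. The combined list kept the direction, at 15.2% against 14.7% and 6.75 against 6.49 regions per 100 kb.

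The median width of members lay below the window median in both complexes and in every list, by amounts that varied. The median shared region of the Antennapedia complex measured 2285 bp against a window median of 2565 bp, and 6 of 74 windows with at least 5 regions were lower. In the bithorax complex it measured 2435 bp against 2597 bp, with 22 of 78 windows lower and 1 equal. The difference was small in replicate 1, at 2110 bp against 2157 bp and 2142 bp against 2165 bp. In replicate 2 it was 2005 bp against 2284 bp and 2087 bp against 2288 bp. The combined list had 2107 bp against 2225 bp and 2088 bp against 2231 bp. The mean differences, -163 ± 164 bp and -112 ± 127 bp (SD, n = 2 each), did not exceed the spread between replicates.

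Median scores of the complexes depended on which list was read. For shared regions they were close to the windows, at 0.72 against 0.71 in the Antennapedia complex and 0.66 against 0.71 in the bithorax complex. In the replicate lists, which include regions of 1 replicate only, the Antennapedia complex was lower, at 0.58 against 0.67 in replicate 1 (6 of 75 windows lower) and 0.50 against 0.70 in replicate 2 (2 of 75 windows lower). Its mean difference was -0.14 ± 0.076 (SD, n = 2), larger than the spread between replicates. For the bithorax complex the values were 0.65 against 0.67 and 0.59 against 0.71, a mean difference of -0.068 ± 0.068. The direction of the Antennapedia value thus depended on the list, close to the windows for shared regions and lower in each replicate.

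Within each complex, regions were spread unevenly. In 50-kb bins from the start of the Antennapedia complex, the bin from 150 to 200 kb, which holds the broad region, was covered to 20.6% in replicate 1 and 23.7% in replicate 2. The bin from 200 to 250 kb was covered to 4.07% and 7.84%. The last bin, from 300 to 350 kb, had no region in replicate 1 and 4 in replicate 2, covering 11.8%. This distal end was the place where the replicate lists differed most.

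The bithorax complex was sparse in its first 200 kb and richer after it, a division chosen after the values were seen. Its bins from 0 to 200 kb were covered to 4.32%, 3.70%, 5.03% and 0% in replicate 1, and to 8.06%, 4.09%, 9.06% and 2.81% in replicate 2. The bins from 200 to 335 kb were covered to 13.4%, 9.37% and 23.4% in replicate 1, and to 13.9%, 10.6% and 27.7% in replicate 2. Every bin of the second stretch exceeded every bin of the first in both replicates, but not in the combined list, where the bin from 250 to 300 kb had 10.9% and the bin from 0 to 50 kb had 11.8%. In the gene order of the RefSeq table, Ubx stands at the start of the complex and Abd-B at its end.

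**Figure D3:**
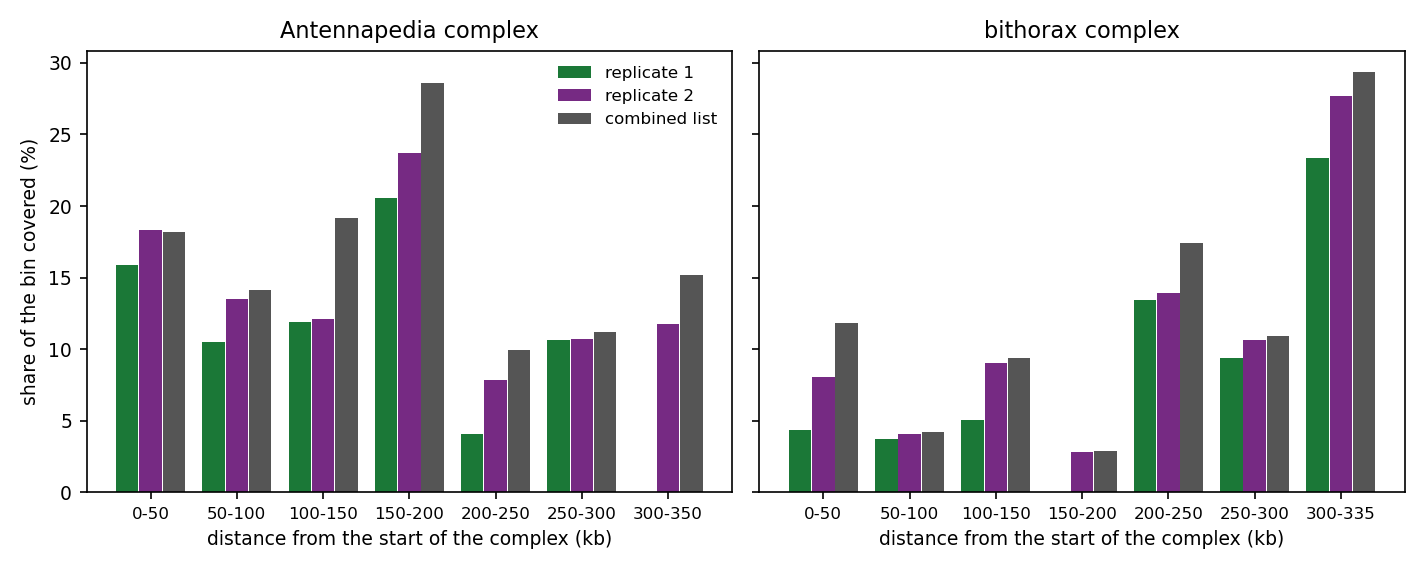
Share of each bin covered by regions (%, bars from 0) in replicate 1, replicate 2 and the combined list, for bins of 50 kb from the start of the Antennapedia complex (left) and of the bithorax complex (right, last bin 35 kb). In the bithorax complex all bins past 200 kb are higher than those before it in both replicates, up to 27.7% in replicate 2, while in the combined list the bin from 250 to 300 kb (10.9%) is below the first (11.8%). The last bin of the Antennapedia complex has no bar for replicate 1.

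Both complexes held long stretches without any region, as the windows did. In the combined list the longest in the Antennapedia complex ran from 2739849 to 2787457 (47.6 kb), followed by 2536533 to 2566731 (30.2 kb) and 2606997 to 2631527 (24.5 kb). In the bithorax complex they ran from 12529755 to 12573475 (43.7 kb), from 12638371 to 12681915 (43.5 kb) and from 12590725 to 12622921 (32.2 kb). Their place among the windows turned with the list. In the combined list the longest empty stretch was shorter than the window median, 47.6 kb against 56.6 kb in the Antennapedia complex (22 of 75 windows lower) and 43.7 kb against 56.9 kb in the bithorax complex (19 of 79 lower). For shared regions, with stretches at the ends of the interval counted, it was longer, 90.2 kb against 87.4 kb (40 of 75 lower) and 90.4 kb against 83.8 kb (44 of 79 lower).

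The replicate lists differed in their empty stretches. In replicate 1, the first empty stretch of the bithorax complex extended over 90.8 kb, from 12482810 to 12573588. In replicate 2 it was broken by the region at 12528152 to 12529768. That region scored 0.40. The longest stretch was 90.1 kb in the Antennapedia complex and 90.8 kb in the bithorax complex in replicate 1, against window medians of 84.5 kb and 79.2 kb. In replicate 2 it was 55.9 kb and 45.04 kb, against 74.3 kb and 71.1 kb.

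Close pairs of regions took a larger share of gaps in the Antennapedia complex than in the bithorax complex. The gaps were few, and the intervals of the complexes overlapped and included the value of the rest of 3R. Of 25 gaps between its neighbouring combined-list regions, 7 were shorter than 1.5 kb (28%, Wilson interval 14.3% to 47.6%). In the bithorax complex 1 of 17 was (5.88%, 1.05% to 26.98%), and in the rest of 3R 19.2% were. In replicate 1 the counts were 2 of 15 and 0 of 11, against 13.9% in the rest of 3R, and in replicate 2 they were 5 of 21 and 1 of 15, against 16.9%. The shortest, 51 bp, separated the regions at 2482074 to 2484646 and 2484698 to 2486930. Among shared regions the counts were 4 of 14 (28.6%, 11.7% to 54.6%) and 0 of 11 (0%, 0% to 25.9%), against 14.5% in the rest of 3R. For these the shortest gap of the bithorax complex was 4343 bp. How far a pair is 1 domain split by the calling was not tested.

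The replicates were compared to ask how well the sites in the complexes recurred. Nearly all regions of replicate 1 were found in replicate 2, whereas replicate 2 held weak regions of its own. Of the replicate 1 regions, 15 of 16 in the Antennapedia complex (93.8%, Wilson interval 71.7% to 98.9%) and 12 of 12 in the bithorax complex (100%, 75.8% to 100%) overlapped replicate 2, against 93.6% in the rest of 3R. Of the replicate 2 regions, 15 of 22 (68.2%, 47.3% to 83.6%) and 12 of 16 (75%, 50.5% to 89.8%) overlapped replicate 1, against 80.7%. The intervals of both complexes include the value of the rest of 3R.

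Every region found in 1 replicate list only had a low score, at most 0.50 in that list. The 1 such region of replicate 1, at 2593354 to 2594838, scored 0.34 and lay 469 bp from a replicate 2 region at 2591112 to 2592885 that scored 0.44 and was likewise unmatched. The other 6 in the Antennapedia complex, all from replicate 2, began at 2566823 (score 0.50), 2718194 (0.31), 2795597 (0.33), 2798240 (0.39), 2803283 (0.50) and 2825873 (0.38). In the bithorax complex, 4 from replicate 2 began at 12528152 (0.40), 12589029 (0.38), 12636977 (0.28) and 12785319 (0.31). All 12 had a counterpart in the combined list, with scores of 0.17 to 0.42 there. In the rest of 3R, combined-list regions met by replicate 2 only scored 0.18 to 0.56 (median 0.35), and by replicate 1 only 0.13 to 0.52 (median 0.33). Some shared members also scored this low, such as the region at 2503368 to 2505382 with 0.45 in replicate 1 and 0.46 in replicate 2.

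Depth in the regions moved with this difference between the lists, for input and for ChIP. The typical autosomal region held 103 input counts per kb in replicate 1 and 129 in replicate 2. Regions of the rest of 3R held 202 ChIP counts per kb in replicate 1 and 250 in replicate 2. The part of depth in the surplus of weak regions was not tested. Of the replicate 2 regions at or above the 25th percentile of score of their list on 3R, 10 of 10 in the Antennapedia complex and 9 of 9 in the bithorax complex were found in replicate 1, against 91.3% in the rest of 3R. That limit kept only 10 of 22 and 9 of 16 members, against 1100 of 1454 regions in the rest of 3R. The unmatched replicate 2 members all fell below it. Combined-list regions found in neither replicate numbered 3 of 26 in the Antennapedia complex and 2 of 18 in the bithorax complex, against 19.5% in the rest of 3R. Their scores were 0.25 to 0.35 and 0.31 to 0.34.

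Scores of paired regions were then compared between the replicates, over 15 pairs in the Antennapedia complex and 12 in the bithorax complex. The median difference, replicate 2 minus replicate 1, was 0.019 and 0.054 in the complexes, against 0.093 in the rest of 3R. Replicate 2 was higher in 10 of 15 and 8 of 12 pairs (66.7% each), against 74.0% in the rest of 3R. The SD of the differences was 0.22 in the Antennapedia complex, 0.14 in the bithorax complex and 0.14 in the rest of 3R, against a median counting error of a difference of 0.15, 0.16 and 0.15. In position the pairs differed little, with a median distance between midpoints of 48.5 bp in the Antennapedia complex and 43.0 bp in the bithorax complex, against 79.3 bp in the rest of 3R.

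The wider spread in the Antennapedia complex came from 3 pairs. Relative to the median of the rest of 3R, the difference of each lay outside its 95% counting interval, against 0 of 12 in the bithorax complex and a background of 3.85%. The region near 2484848 was higher in replicate 2, at 1.00 against 0.49 in replicate 1. The regions near 2531113 and 2604852 were higher in replicate 1, at 0.76 against 0.41 and 0.75 against 0.50. Another, near 2533602, lay just inside the limit with 1.14 in replicate 1 and 0.95 in replicate 2. These pairs changed in both directions, and their strength is less certain than that of the other members.

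Ranked by score, the pairs gave a Spearman's rho of 0.69 over the 15 pairs of the Antennapedia complex and 0.78 over the 12 of the bithorax complex, against 0.84 over 1170 pairs in the rest of 3R. Pearson's r was 0.78, 0.89 and 0.87. These are descriptions across regions of the same libraries. Stronger members also tended to be wider, with a rho between score and width in replicate 1 of 0.93 and 0.83 in the complexes and 0.80 in the rest of 3R.

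**Figure D4:**
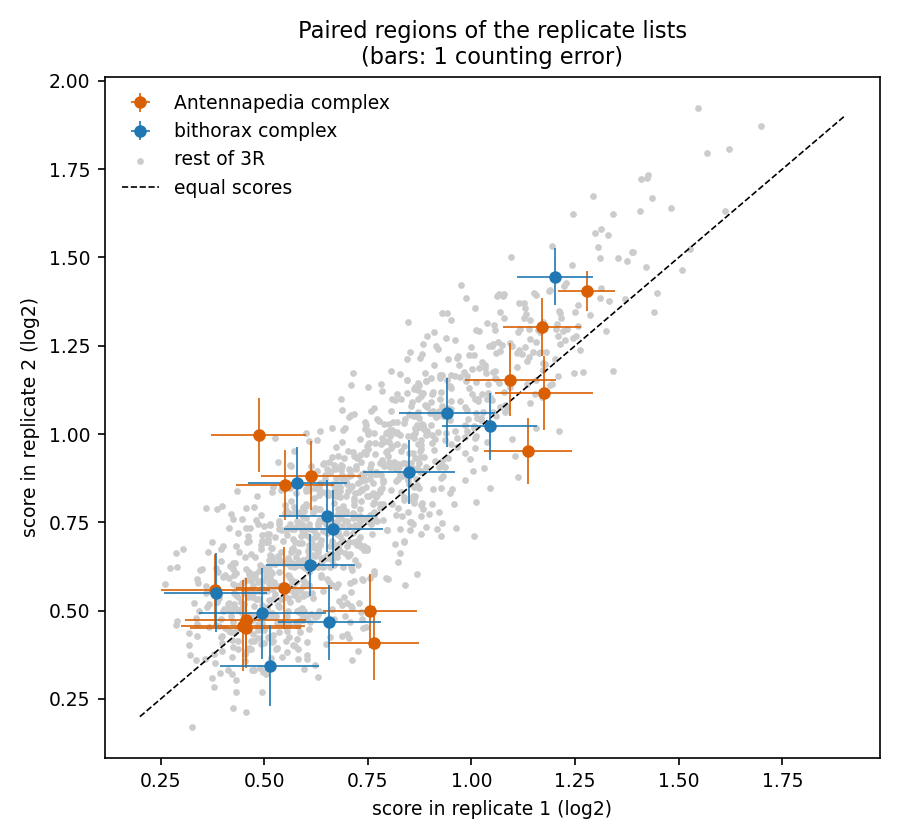
Score in replicate 1 (horizontal, log2) and replicate 2 (vertical, log2) for paired regions of the Antennapedia complex, the bithorax complex and the rest of 3R. Bars are 1 counting error and the dashed line marks equal scores. Among the members, the Antennapedia region with 0.49 in replicate 1 and 1.00 in replicate 2 lies farthest above the line.

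The depth behind these values was even between the complexes and the arm. The median shared region held 1055 ChIP and 582 input counts in the Antennapedia complex and 1076 and 577 in the bithorax complex, against 1119 and 600 in the rest of 3R. The counting error of a combined-list score had a median of 0.075 in the Antennapedia complex and 0.074 in the bithorax complex, against 0.073. Input counts per kb in the regions were 108 and 109 in replicate 1, against 104 in the rest of 3R, and 133 and 138 in replicate 2, against 129. Counts were scaled towards the typical input density of the autosome arms, which draws such ratios towards 1.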

How the data were processed

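The deposited files used here were 3 lists of enriched regions, 1 for each ChIP replicate and 1 combined list. The build is FlyBase r5, per the file headers, and the aligner Bowtie 0.12.7, per the submitters' processing notes. Not given in the sources used here are the region caller, its threshold and how the combined list was made. The log2 score of each region is the authors' deposited value.

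The ratio given by raising 2 to the score, divided by 1 constant per list (0.885, 0.927 and 0.908), gave fractions of whole numbers for 100% of regions in each list at a relative tolerance of 2e-10 and denominators up to 3000. ChIP counts were taken as the numerators and input counts as the denominators, which no file states. Each fraction, known in lowest terms, was scaled by the whole multiple closest to the typical input density of the autosome arms. On simulated scores this returned 86.5% of the count pairs for replicate 1, 86.4% for replicate 2 and 87.4% for the combined list. The simulated input counts were drawn around that same typical density with an assumed spread. These shares depend on that spread and do not measure accuracy on the deposited lists. Library totals are not in the lists, so depth outside the regions is unknown.

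Windows tiled 3R from its first base and excluded the complexes. A window needed 5 regions for a median. No resampling or test across regions was run. Named regions were the 6 highest-scoring and 4 widest shared regions of each complex, the 3 longest empty stretches and every region of 1 replicate only. The members, measures and rules were chosen with earlier results of these data known. Analyses used Python 3.11.15, numpy 2.4.6, pandas 2.3.3 and scipy 1.17.1. Positions of genes, promoters and boundary elements and DNA sequences were not analysed here.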

Additional observations from a re-analysis of the deposited data

How the results depend on the processing

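No paired analysis was possible because no value here comes from a test with a model to block by replicate; differences within each replicate are given instead. Values here are the complex minus the median of its windows for shared regions. Shares of regions found in the other replicate and median counting errors were counted as well. The settings for Antennapedia minus bithorax, given below, were not counted. A change counts where it exceeded the SD between replicates (for shares, the Wilson interval). A turn of sign counts whatever its size. Of 86 alternatives that keep both replicates, 62 left the value within that limit, 14 moved it further and 10 turned its sign. Some of these 10 changed the value by less than the limit. The cause was not tested.

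With each replicate list alone, regions per 100 kb ranged from 0.29 to 1.14 (0.29 for shared regions) in the Antennapedia complex and from -1.19 to -0.60 (-0.60) in the bithorax complex, and the covered share from 0.37 to 1.77 (0.47) and from -3.19 to -3.10 (-3.68) percentage points. Median width ranged from -280 to -47.0 bp (-280) and from -202 to -22.5 bp (-162), and median score from -0.20 to -0.090 (0.0075) and from -0.12 to -0.019 (-0.043). With 25 kb added on each side, density was -0.50 and 0.78, and the covered share -1.43 and -0.42. With 25 kb removed, density was -1.40 in the bithorax complex, the covered share -0.80 and -5.21, and median score -0.12 and 0.046. With the whole combined list, the bithorax complex had -1.49 for density and -4.92 for coverage, and the Antennapedia complex -0.065 for score. Above the 25th percentile of score, the covered share was -0.0071 and -3.01, and the Antennapedia complex had -470 bp and -0.047. Windows moved along 3R so that their bounds fell at the earlier midpoints gave a covered share of -0.80 and -2.87. For the bithorax complex, coverage was -2.76 with a 50% reciprocal overlap and -3.49 without the first and last 2 Mb. Shared replicate 1 regions of the Antennapedia complex came to 100% within 500 bp or above the 25th percentile. Above that percentile, shared replicate 2 regions came to 100% in both complexes, of the 10 and 9 regions left. Between the complexes (Antennapedia minus bithorax, settings added after the data were seen), density was 1.53 with 25 kb removed and -0.68 with 25 kb added, against 0.70, and the covered share was 4.19 and -0.76, against 2.80 percentage points. Counting errors of the members found in 1 replicate were 0.12 to 0.16.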
